A study of Mus musculus with 21 samples.

Results

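The part of the data described here was 10 integrin genes of cDCs, namely Itgam, Itgax, Itgae, Itgal, Itga4, Itgav, Itgb1, Itgb2, Itgb7 and Itgb8, found by gene name as 10 of the 37734 genes measured. They encode 6 α and 4 β subunits. RNAseq was performed on FACS-sorted CD11c+ cells of C57BL/6 (C57Bl6/JRj) mice aged 6 to 8 weeks, with no treatment in any group. Cells labelled immature were CCR7- and Esam-, and cells labelled mature were CCR7+ and Esam+. The groups were immature cDC1 of the spleen (splenic cDC1, n = 4), immature cDC1 of the thymus (n = 4), mature cDC1 of the thymus (n = 3), and cDC2 of the spleen, immature cDC2 of the thymus and mature cDC2 of the thymus (n = 3 each). No mature splenic group was analysed here. cDC1 were sorted as CD24+ CD11b- and cDC2 as CD24- CD11b+ cells after bead selection for CD11c, so that the proteins of Itgam (CD11b) and Itgax (CD11c) were part of the gates. Each library came from pooled animals. The 21 libraries gave 20 samples, since splenic cDC1 replicates 4 and 5, with 1 pool, index and lane on their labels, differed far less than the other pairs and were averaged as 1 sample (chi-square per degree of freedom of their counts 2.44, against 25.0 to 176 for the other pairs of that group). Splenic cDC1 replicates 1 and 4 also carried the same pool number and were kept apart. Immature thymic cDC1 replicates 3 and 4 shared pool number, index and lane as well, but differed by a chi-square of 92.8 per degree of freedom, against 22.8 to 86.1 for the other pairs of that group, and were kept apart, so that 1 pool may be counted more than once in that n of 4. With 1 sample per pool, the tissue difference of Itgal was the only call of an integrin gene that was lost (adjusted p = 0.184). Since the labels name pools but not separate animals for each sample, p values measure the spread between these samples.

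Integrins are heterodimers of 1 α and 1 β chain that bind matrix proteins and counter-receptors on other cells, and both chains are needed for export to the surface. In leukocytes the β2 chain (Itgb2, CD18) pairs with αL (Itgal) to form LFA-1, with αM (Itgam) to form Mac-1 and with αX (Itgax) to form CD11c/CD18. The β7 chain pairs with αE (Itgae, CD103), which binds E-cadherin, and with α4. The α4 chain also pairs with β1 to form VLA-4, a receptor of VCAM-1 and fibronectin, and αv pairs with β8 to form a receptor that activates latent TGF-β.

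Values are read counts divided by the size factor of the library, called normalized read counts below, from libraries of 14266867 to 40119669 reads. Defining cDC markers matched the labels, with the summed level of 6 cDC1 markers at 89379 to 103347 in immature cDC1 against 3211 to 7343 in immature cDC2. In mature thymic cells the gap was smaller, at 43107.9 to 47585.8 in cDC1 against 16973.5 to 24346.5 in cDC2, and 4 of the 6 were called lower in cDC2. The summed level of 5 cDC2 markers was 14434.5 to 19031 in mature cDC2 against 2464 to 3761 in mature cDC1. The summed level of 6 maturation markers was 382571 to 552604 in mature cells against at most 31963 in immature cells. The summed level of 8 T-cell markers, genes of the thymocytes that surround thymic cDCs, was 747 to 2437 in mature thymic, 166 to 287 in immature thymic and 28.1 to 83.8 in splenic samples. None of these 8 genes was at 0 throughout a mature group. The summed level of 6 macrophage markers was 1746, 13458 and 14521 in the 3 mature thymic cDC2 samples, and which of them held the low sum is not given here. Replicate 3 of mature thymic cDC2 stood apart from the other 2 of its group (chi-square per degree of freedom of 125 and 144, against 26.9 between those 2). In bulk samples, fewer cells carrying a transcript and less RNA per cell cannot be told apart. T cells also express Itgal, Itga4, Itgb1 and Itgb7, and the part of these cell markers in the results below was not tested.

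Gene positions are in mm10 with GENCODE M21. Itgam, Itgax and Itgal lie on chromosome 7 (128062640 to 128118491, 128129547 to 128150657 and 127296260 to 127335138, all on the plus strand). These 3 partners of β2 thus share a chromosome, with Itgam and Itgax close together and Itgal further off. Itgb2 lies on chromosome 10 (77530252 to 77565708, plus). Itgae is on chromosome 11 (73090583 to 73147446, plus) and Itgb7 on chromosome 15 (102215995 to 102231944, minus). Itga4 and Itgav are on chromosome 2 (79255426 to 79333123 and 83724397 to 83806916, plus). Itgb1 is on chromosome 8 (128685654 to 128733200, plus) and Itgb8 on chromosome 12 (119158022 to 119238802, minus). The exons of Itgam share 3450 of 5024 bases with Gm49368 on the same strand, which was not analysed here, and how the reads there were counted is not given in the sources used here. Those of Itga4 share 1124 bases with Cerkl on the other strand, and Cerkl was at 25.0 to 136 normalized read counts in all samples, far below Itga4. Those of Itgav share 634 bases with Gm13684 on the other strand, which was listed at 0 in all samples.

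Upstream sequences were found in RefSeq (GRCm38.p6) for 7 of the 10 genes, that is all but Itgae, Itgal and Itgb2. The windows are the 250 bases before the RefSeq start. For Itgb8 all 250 bases lay inside the gene as placed by GENCODE M21, so that its window is upstream by RefSeq only. In Itgax 3 bases and in Itgb7 9 bases of the window lay inside the gene. Shown are the bases just upstream of the start of a pair of genes that were lower in mature cells, Itgam (chr7:128062390-128062639, plus strand) and Itgax (chr7:128129300-128129546, plus strand), and of a pair that were higher, Itga4 (chr2:79255176-79255425, plus strand) and Itgb1 (chr8:128685404-128685653, plus strand). Capitals mark matches to any of 5 motifs that were searched on both strands, and none of the matches overlapped another.
Itgam: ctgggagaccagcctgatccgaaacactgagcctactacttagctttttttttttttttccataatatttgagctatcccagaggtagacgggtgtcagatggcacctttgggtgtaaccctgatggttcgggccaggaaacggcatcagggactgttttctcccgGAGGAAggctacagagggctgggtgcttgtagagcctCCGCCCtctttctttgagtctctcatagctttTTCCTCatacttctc
Itgax: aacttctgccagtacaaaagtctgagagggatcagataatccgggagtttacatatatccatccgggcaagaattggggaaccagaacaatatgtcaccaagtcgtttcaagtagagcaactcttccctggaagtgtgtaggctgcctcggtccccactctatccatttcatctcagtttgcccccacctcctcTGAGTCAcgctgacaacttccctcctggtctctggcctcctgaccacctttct
Itga4: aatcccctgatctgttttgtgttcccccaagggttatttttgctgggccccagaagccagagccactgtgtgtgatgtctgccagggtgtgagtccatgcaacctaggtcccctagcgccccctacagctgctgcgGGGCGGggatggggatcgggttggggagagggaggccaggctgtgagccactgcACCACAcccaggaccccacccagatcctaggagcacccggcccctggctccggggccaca
Itgb1: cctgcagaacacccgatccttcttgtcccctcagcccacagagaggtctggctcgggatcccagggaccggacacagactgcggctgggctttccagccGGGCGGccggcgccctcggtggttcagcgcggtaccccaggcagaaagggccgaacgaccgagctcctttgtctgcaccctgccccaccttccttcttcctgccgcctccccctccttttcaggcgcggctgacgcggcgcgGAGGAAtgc
The core letters GAGGAA of the PU.1 motif were found at 2 places each in Itgam and Itgav and at 1 in Itgb1. Of all 27025 promoters of 250 bases, 23.1% held them. The AP-1 letters TGANTCA were found in Itgax, against 6.87% of all promoters. The RUNX letters TGTGGT were found in Itga4 (14.2% of all promoters), and the Sp1 letters GGGCGG in Itgam, Itga4 and Itgb1 (32.9%). The letters TATAAA of the TATA box, found in 13.0% of all promoters, were in none of the 7 windows. The share of G and C in the 7 windows ran from 49.6% for Itgam and 50.0% for Itgax through 56.0% for Itgb7, 62.4% for Itgb8, 64.0% for Itga4 and 64.4% for Itgav to 68.0% for Itgb1, with a median of 52.0% over all promoters.

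**Figure D1:**
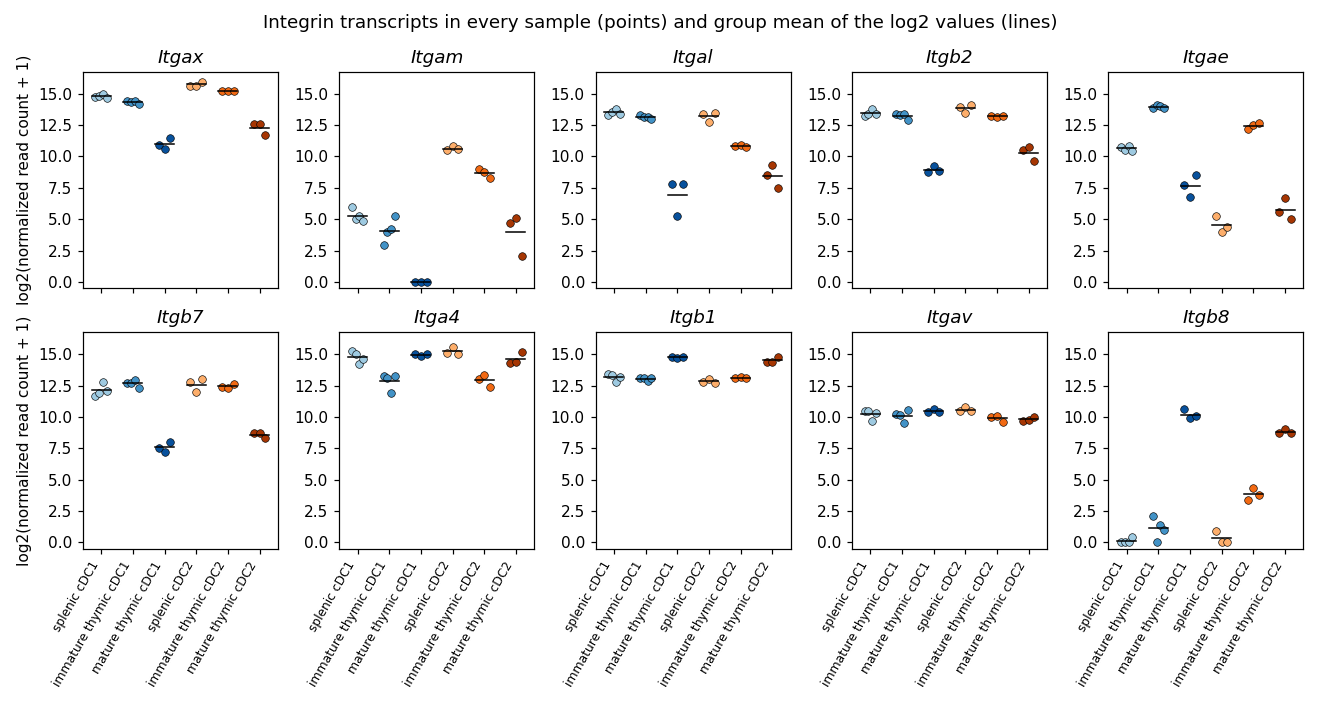
Each panel plots 1 integrin gene, with log2(normalized read count + 1) on the vertical axis, the 6 groups on the horizontal axis, a point for each sample and a line at the group mean. Itgb1 lies higher in all 6 mature samples than in the 14 immature ones, Itgb2 and Itgb7 lie lower, and Itgb8 is near 0 in all immature cDC1.

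The comparison of mature with immature thymic cells asks how the integrin genes differ across cDC maturation. In thymic cDC1, 9 of the 10 genes differed between mature and immature cells by more than 2-fold at an adjusted p below 0.1 (limma, Benjamini-Hochberg over 14970 genes). Itga4, Itgb1 and Itgb8 were higher (3 of 10, against 21.3% of all tested genes) and Itgam, Itgax, Itgae, Itgal, Itgb2 and Itgb7 were lower (6 of 10, against 24.5%). In thymic cDC2, the same 3 genes were higher (against 18.6% of all tested genes) and the same 6 were lower (against 17.0%). The median log2 fold change of the 10 genes was -3.72 in cDC1 and -2.66 in cDC2, against -0.04 and 0.04 over all tested genes. Itgav was called in neither subset. The values of the 9 called genes did not overlap between mature and immature samples of either subset. Since these genes were picked by their calls, and the share of all tested genes without overlap was not counted, this is no separate result.

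**Figure D2:**
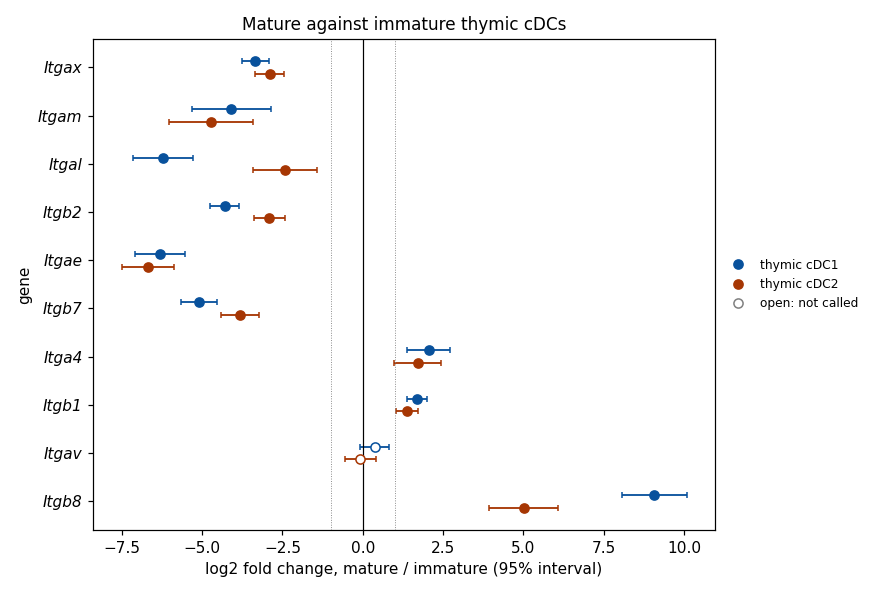
The plot gives the log2 fold change of mature over immature thymic cells (horizontal axis) for each integrin gene (vertical axis) in cDC1 and cDC2, with 95% intervals and filled symbols for called genes. In both subsets Itgax, Itgam, Itgal, Itgb2, Itgae and Itgb7 lie left of 0, and Itga4, Itgb1 and Itgb8 lie right of 0.

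Itgb2, the β chain common to the leukocyte integrins, was at 10482, 10282, 10533 and 7899 normalized read counts in immature thymic cDC1 and at 422, 612 and 462 in mature ones. In cDC2 it was at 9806, 9300.0 and 9430.0 in immature and 1459, 1711 and 803 in mature thymic cells. Log2 fold changes are given ± SE with the Benjamini-Hochberg adjusted p of limma. The mature samples were all below the immature ones, by a log2 fold change of -4.30 ± 0.22 (adjusted p = 1.13e-12) in cDC1 and -2.91 ± 0.23 (adjusted p = 2.57e-09) in cDC2. The fall was smaller in cDC2, and the difference between the subsets was itself called (1.39 ± 0.32, adjusted p = 0.00581). In the spleen Itgb2 was at 9682, 10998, 13941 and 10999.7 in cDC1 and 16059.9, 11456 and 17696 in cDC2. It was not called between tissues, at -0.22 ± 0.20 (adjusted p = 0.627) in cDC1 and -0.64 ± 0.23 (adjusted p = 0.0558) in cDC2.

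Itgax, the gene of the α chain CD11c by which all cells were selected, was at 21629.7, 21129, 22197 and 18520.2 in immature and 1919, 1555 and 2877 in mature thymic cDC1. In thymic cDC2 it was at 37820.5, 37286 and 37614 in immature and 6077, 6243 and 3384 in mature cells. It was thus lower at maturation by a log2 fold change of -3.35 ± 0.21 (adjusted p = 2.24e-11) in cDC1 and -2.90 ± 0.22 (adjusted p = 1.35e-09) in cDC2, although mature cells had passed the same CD11c selection. In the spleen Itgax was at 27269.9, 29579.5, 31748 and 26287 in cDC1 and 51580.3, 51104 and 63329 in cDC2. All thymic samples were below all splenic samples of their subset, but by less than 2-fold (-0.46 ± 0.19, adjusted p = 0.141 in cDC1 and -0.55 ± 0.22, adjusted p = 0.0844 in cDC2). The order of the 6 group means ran from mature cDC1 through mature cDC2, immature thymic cDC1, splenic cDC1 and immature thymic cDC2 to splenic cDC2, and no neighbours in this order overlapped.

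Itgam, the gene of the α chain CD11b, was at 1429, 1802 and 1512 in splenic cDC2 and at 502, 445 and 305 in immature thymic cDC2. It was at 25.3, 32.7 and 3.14 in mature thymic cDC2, so that the gene of the gating protein of cDC2 was near the level of cDC1 there. In cDC1 it was at 60.7, 30.6, 36.9 and 27.4 in the spleen and 6.76, 15.0, 17.2 and 36.4 in immature thymic cells, and 0 reads were counted in all 3 mature cDC1 libraries. With a floor of 3 reads per library, mature cDC1 were at least 4.30-fold lower than immature thymic cDC1. In cDC2 the log2 fold change at maturation was -4.73 ± 0.63 (adjusted p = 3.29e-06), and it was -3.78 without mature thymic cDC2 replicate 3, the sample with the lowest value. The summed level of markers of macrophages, a cell type that expresses Itgam, also varied in mature thymic cDC2, from 1746 to 14521. Its part in the level of Itgam was not tested. Thymic cDC2 were below splenic cDC2 (-1.94 ± 0.63, adjusted p = 0.0335), a call that was lost without immature thymic cDC2 replicate 3 (log2 fold change -1.73, adjusted p = 0.131). In cDC1 Itgam was not called between tissues (-1.16 ± 0.55, adjusted p = 0.217), but was called without immature thymic cDC1 replicate 4 (-1.54, adjusted p = 0.0919) and without mature thymic cDC2 replicate 3 (-1.16, adjusted p = 0.0678).

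Itgal, the α chain of LFA-1, which binds ICAM-1 on other leukocytes, was at 10032, 9134, 9007 and 8307 in immature and 218, 36.4 and 219 in mature thymic cDC1. In thymic cDC2 it was at 1846, 1963 and 1754 in immature and 375, 624 and 177 in mature cells. It fell in both subsets, by a log2 fold change of -6.23 ± 0.45 (adjusted p = 2.45e-10) in cDC1 and -2.42 ± 0.48 (adjusted p = 2.93e-04) in cDC2, and the difference between these effects was called (3.81 ± 0.65, adjusted p = 5.53e-04). Without mature thymic cDC1 replicate 2, the fall in cDC1 was -5.37 and the difference 2.96, both still called. The starting levels of the subsets differed, since immature thymic cDC2 were below immature thymic cDC1 in all samples. In the spleen the gene was at 10418, 12114, 14204 and 10837 in cDC1 and 10471, 6984 and 11409.7 in cDC2, and these groups overlapped. Thymic cDC2 were lower than splenic cDC2 (-2.35 ± 0.48, adjusted p = 0.00128), whereas cDC1 were not called between tissues (-0.38 ± 0.41, adjusted p = 0.702). The test of the difference between these tissue effects gave -1.97 ± 0.63 (adjusted p = 0.0925), and this call was lost on omission of any 1 of 13 samples, with adjusted p up to 0.213.

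Itgae, the α chain (CD103) that pairs with β7 to bind E-cadherin, showed the largest difference between tissues of the 10 genes. In the thymus it was at 15277, 17568, 17126 and 14959 in immature cDC1 and 4697, 5812 and 6455 in immature cDC2. In the spleen it was at 1760.3, 1480.3, 1845 and 1349.5 in cDC1 and 36.6, 15.0 and 19.6 in cDC2. Thymic cells were above splenic cells in both subsets, by a log2 fold change of 3.34 ± 0.34 (adjusted p = 6.11e-07) in cDC1 and 7.92 ± 0.39 (adjusted p = 4.35e-11) in cDC2, and this difference between subsets was called (4.58 ± 0.52, adjusted p = 1.12e-05). In mature thymic cells Itgae was at 210.1, 107 and 372 in cDC1 and 47.6, 104 and 30.6 in cDC2. The fall at maturation was -6.31 ± 0.37 (adjusted p = 1.12e-11) in cDC1 and -6.69 ± 0.39 (adjusted p = 4.23e-11) in cDC2, and the difference between the subsets was not called (-0.38 ± 0.54, adjusted p = 0.711). Mature thymic cDC2 overlapped with splenic cDC2, the lowest of the 6 groups, while mature thymic cDC1 were below splenic cDC1 in all samples.

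Itgb7, the β chain of αEβ7 and of α4β7, was at 6603, 6878, 8091 and 5153 in immature and 186, 144 and 259.9 in mature thymic cDC1. In thymic cDC2 it was at 5233, 5197 and 6218 in immature and 431, 418 and 321 in mature cells. The fall was -5.10 ± 0.26 (adjusted p = 1.69e-12) in cDC1 and -3.83 ± 0.28 (adjusted p = 8.92e-10) in cDC2, and it was smaller in cDC2 (1.27 ± 0.39, adjusted p = 0.0340). Unlike Itgae, Itgb7 was called in neither subset between tissues (0.56 ± 0.24, adjusted p = 0.164 in cDC1 and -0.16 ± 0.28, adjusted p = 0.758 in cDC2), and the 4 immature groups overlapped with their neighbours in the order of means. Splenic samples were at 3223, 3876, 7221 and 4384 in cDC1 and 7004, 4029.8 and 8297 in cDC2. Per kilobase of exon, the level of Itgae was 1.49 ± 0.205 times that of Itgb7 in immature thymic cDC1 and 0.616 ± 0.0675 times in immature thymic cDC2. The same ratio of levels, as mean ± SD, was 0.225 ± 0.0766 in splenic cDC1 and 0.00228 ± 0.000868 in splenic cDC2.

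Itga4, the α chain of VLA-4 and of α4β7, was at 39135, 33666, 19049.8 and 24782 in splenic cDC1 and 34371, 49754 and 33264 in splenic cDC2. In immature thymic cells it was at 9868, 8843, 3795 and 10028 in cDC1 and 8470.4, 10338 and 5232 in cDC2. All immature thymic samples were below all splenic samples, by a log2 fold change of -1.89 ± 0.30 (adjusted p = 1.42e-04) in cDC1 and -2.32 ± 0.35 (adjusted p = 5.81e-05) in cDC2. The summed level of 5 markers of B cells, which express Itga4, was also lower in the thymus, at 106 to 139 against 566 to 984 in cDC1 and 169 to 239.9 against 599.7 to 637 in cDC2, and its part in this difference was not tested. Of these markers Pax5 was at 0 in immature thymic cDC2. In mature thymic cells Itga4 was at 32449, 29316 and 32538 in cDC1 and 20627, 20978 and 36944 in cDC2, higher than in immature thymic cells by 2.05 ± 0.33 (adjusted p = 1.74e-05) and 1.71 ± 0.35 (adjusted p = 3.99e-04). Mature thymic cDC1 and cDC2 overlapped with splenic cDC1, and the lowest group means were those of the 2 immature thymic groups. Itga4 moved in opposite directions across tissue and maturation to Itgae, and both of these comparisons rest on the same immature thymic samples.

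The spread of Itga4 within groups went with a measure of gene length in some groups but not in all. Replicate 3 was the lowest sample for Itga4 in splenic cDC1, immature thymic cDC1 and immature thymic cDC2. Over 1904 genes with more than 8000 exon bases and 1393 with fewer than 2000, the median deviation of long minus short genes from the group mean was -0.39, -0.65 and -0.29 (log2) in these 3 libraries, the lowest of the 20 samples. The deviation of Itga4 itself, with 13978 exon bases, was -0.56, -1.0 and -0.56, and that of Itgav, with 10744, was -0.54, -0.62 and -0.32. In mature thymic cDC2 replicate 3, where Itga4 was highest of its group, the length measure was 0.40, the highest of the 20 samples. Splenic cDC2 went otherwise. Replicate 3 was lowest there for Itga4 (deviation -0.21) with a length measure of 0.06, against -0.16 and -0.23 in replicate 1. The part of gene length in the spread of Itga4 was not tested. Without the 3 libraries with the lowest length measure, an alternative added after seeing the data, the log2 fold change of Itga4 was -1.74 and -2.04 for thymic over splenic cDC1 and cDC2, and 1.71 and 1.43 at maturation, all still called.

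Itgb1, the β chain of VLA-4, was at 8804, 9054, 7549 and 8679 in immature and 28097, 25979.8 and 28608 in mature thymic cDC1. In thymic cDC2 it was at 8782, 9318 and 8645 in immature and 21599.9, 21112 and 27555 in mature cells. The rise was 1.70 ± 0.15 (adjusted p = 6.51e-09) in cDC1 and 1.38 ± 0.16 (adjusted p = 6.09e-07) in cDC2, and the difference between these effects was not called (-0.31 ± 0.22, adjusted p = 0.396). In the spleen it was at 11126, 10481, 7117 and 9139 in cDC1 and 6939, 8323 and 6852 in cDC2. Between tissues Itgb1 was not called (-0.13 ± 0.14, adjusted p = 0.679 in cDC1 and 0.28 ± 0.16, adjusted p = 0.255 in cDC2). The 4 immature groups overlapped with their neighbours in the order of means, and each was below all mature samples.

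Itgb8, the β chain that pairs with αv to activate latent TGF-β, was at 1550.3, 979 and 1056 in mature thymic cDC1 and 416, 522 and 432 in mature thymic cDC2. In immature thymic cells it was at 3.38, 0, 1.56 and 1.01 in cDC1, or 0 to 4 reads per library, and at 9.61, 18.7 and 12.5 in cDC2, or 8 to 28 reads. In the 7 splenic samples at most 1 read was counted per library, below the floor of 3 reads. On the log2(value + 1) scale, which understates the change of so low a gene, the rise at maturation was 9.07 ± 0.48 (adjusted p = 2.79e-12) in cDC1 and 5.01 ± 0.52 (adjusted p = 1.12e-07) in cDC2. The rise was larger in cDC1 (-4.06 ± 0.71, adjusted p = 6.47e-04). Immature thymic cDC2 were at least 4.29-fold higher than splenic cDC2, with an adjusted p of 4.73e-05. The summed level of the 6 maturation markers was 21879.9 to 31963 in these immature thymic cDC2, against 3584 to 8245 in splenic cDC2 and 4086 to 6326 in immature thymic cDC1, and its part in the level of Itgb8 was not tested. Of these markers 3 were called higher and 1 lower in thymic than in splenic cDC2. In cDC1 no fold is given between tissues, since both groups were at or near the floor, and Itgb8 was not called there (adjusted p = 0.173) but was called without immature thymic cDC1 replicate 2 (adjusted p = 0.0451) and with a pseudocount of 0.1 (adjusted p = 0.0953). The difference between the tissue effects, 2.48 ± 0.68 (adjusted p = 0.0388), was not called without immature thymic cDC2 replicate 2 (adjusted p = 0.122), without splenic cDC2 replicate 3 (adjusted p = 0.107) or by edgeR (adjusted p = 0.752).

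Itgav, the α chain that pairs with β8 and other β chains, ranged from 716 to 1730 normalized read counts over the 20 samples. Its log2 fold change at maturation was 0.37 ± 0.22 (adjusted p = 0.152) in cDC1, with a 95% interval of -0.08 to 0.82, and -0.08 ± 0.23 (adjusted p = 0.814) in cDC2, with an interval of -0.56 to 0.40. It was lower in thymic than in splenic cDC2 in all samples, by less than 2-fold (-0.70 ± 0.23, adjusted p = 0.0366). Per kilobase of exon, the level of Itgav was 77.3 ± 28.9 times that of Itgb8 in immature thymic cDC2, 2.04 ± 0.374 times in mature thymic cDC2 and 1.29 ± 0.389 times in mature thymic cDC1. Thus the αv transcript was counted in all samples, and of this pair of genes only Itgb8 was called across maturation.

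The makeup of the integrin transcripts was described by the share of each gene in the summed level per kilobase of exon of the 6 α or the 4 β genes. Among the β genes, Itgb2 held the largest share in the 4 immature groups, from 41.5% ± 1.56 in immature thymic cDC1 to 54.2% ± 2.09 in splenic cDC2. Values are means ± SD over the samples of a group. Itgb1 held 27.3% ± 4.02 in immature and 95.2% ± 0.228 in mature thymic cDC1. In thymic cDC2 the share of Itgb1 was 29.9% ± 1.64 in immature and 90.0% ± 3.66 in mature cells. Among the α genes, Itgax held the largest share in the 4 immature groups, with 57.8% ± 3.62 in splenic cDC1, 43.6% ± 1.88 in immature thymic cDC1, 70.8% ± 3.46 in splenic cDC2 and 77.6% ± 1.69 in immature thymic cDC2. Itgae held 35.5% ± 2.04 in immature thymic cDC1 and 3.39% ± 0.385 in splenic cDC1. In mature cells Itga4 held the largest α share, 77.9% ± 3.87 in cDC1 and 59.0% ± 14.7 in cDC2. The share of Itga4 in mature thymic cDC2 was 76.0% in replicate 3, which stood apart above, and at least 50.0% in the other 2 samples. Transcript shares do not give the shares of protein at the surface.

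**Figure D3:**
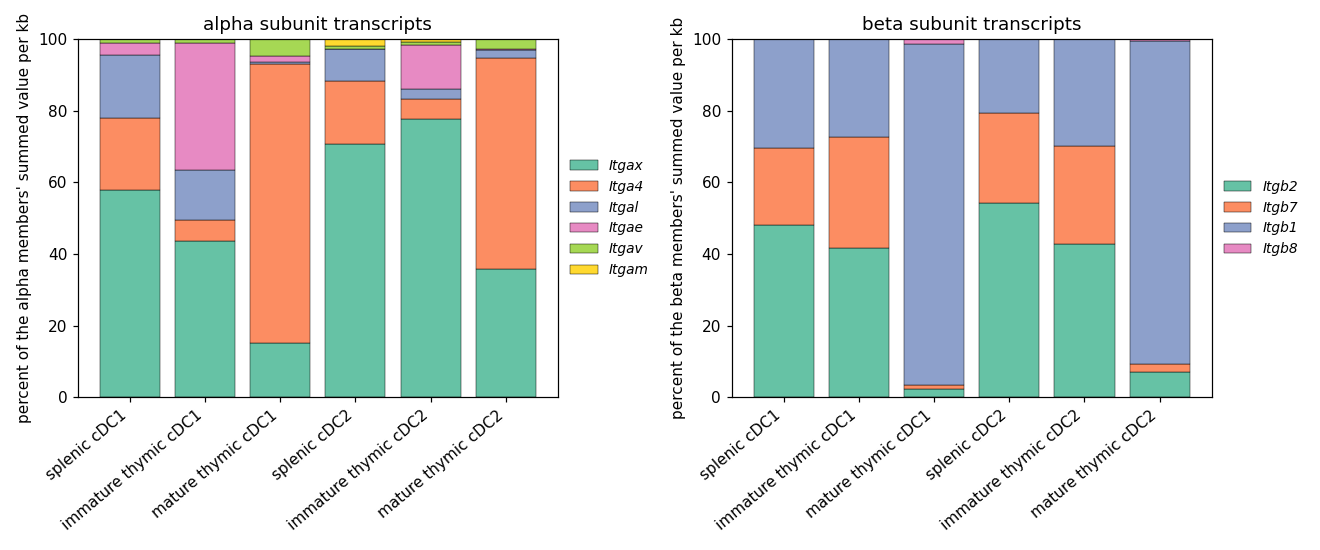
The stacked bars give, for the 6 groups on the horizontal axis, the mean percent of each gene in the summed normalized read count per kilobase of exon of the 6 α genes (left) and the 4 β genes (right). Itgb1 fills 95.2% and 90.0% of the β bar in mature cDC1 and cDC2, and Itga4 fills most of their α bar.

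The comparison of thymic with splenic immature cells asks which integrin genes differ by tissue. In cDC1, Itgae was higher (1 of 10, against 4.26% of all tested genes) and Itga4 lower (1 of 10, against 4.52%) in the thymus. In cDC2, Itgae and Itgb8 were higher (2 of 10, against 8.30%) and Itgam, Itgal and Itga4 lower (3 of 10, against 5.87%). The summed level of 4 plasmacytoid DC markers was 7083 to 8010 in immature thymic and 2301 to 3419 in splenic cDC2, and all 4 were called higher. That of 6 macrophage markers was 5290 to 8732 against 1107 to 2034, with 3 called higher and 0 lower. The part of these markers in the tissue differences was not tested. The tissue effects of the subsets differed by test for Itgae and Itgb8, with a larger rise in cDC2 (2 of 10, against 3.27%), and for Itgal, with a larger fall in cDC2 (1 of 10, against 1.71%), of which only that of Itgae was kept under all alternatives. For Itgax, Itgb1, Itgb2, Itgb7 and Itgav the tissue difference did not pass both thresholds in either subset.

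**Figure D4:**
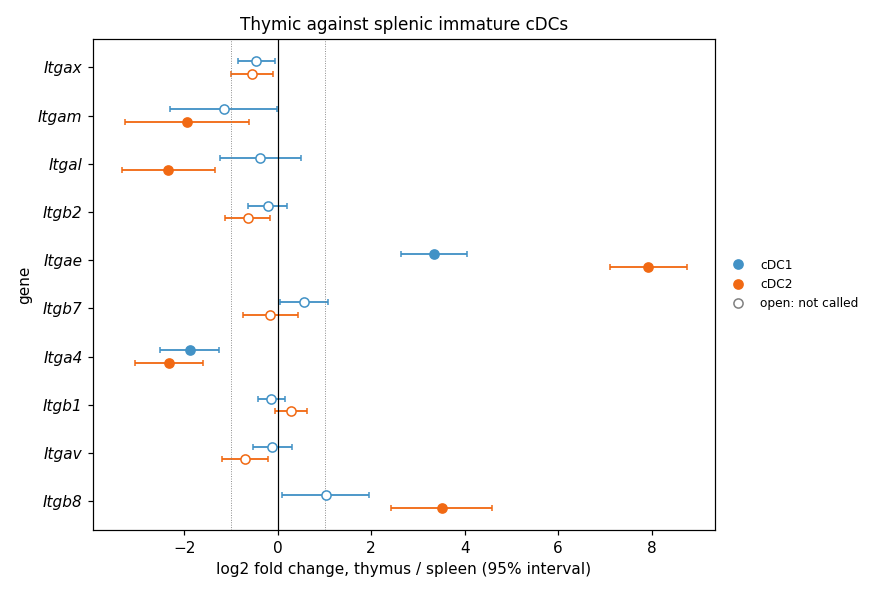
The plot gives the log2 fold change of thymic over splenic immature cells (horizontal axis) for each integrin gene (vertical axis) in cDC1 and cDC2, with 95% intervals and filled symbols for called genes. Itgae lies at 3.34 in cDC1 and 7.92 in cDC2, and Itga4 lies left of 0 in both.

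The comparison of cDC2 with cDC1 asks which integrin genes differ by subset. Itgam was higher in cDC2 in all 3 settings, which checks the CD11b gate and is no finding. In the spleen, Itgam was higher (1 of 10, against 9.93% of all tested genes) and Itgae lower (1 of 10, against 6.70%), the latter by -6.11 ± 0.37 (adjusted p = 8.75e-11). In immature thymic cells, Itgam and Itgb8 were higher (2 of 10, against 11.0%) and Itgae and Itgal lower (2 of 10, against 5.42%). The log2 fold change of Itgae there was -1.53 ± 0.37 (adjusted p = 0.00402) and that of Itgal -2.30 ± 0.45 (adjusted p = 5.74e-04). In mature thymic cells, Itgam, Itgax, Itgal, Itgb2 and Itgb7 were higher (5 of 10, against 14.6%) and Itgae and Itgb8 lower (2 of 10, against 4.36%). Of the 4 β2 integrin genes described here, Itgb2 was higher in mature cDC2 than in mature cDC1 by 1.35 ± 0.23 (adjusted p = 2.19e-04). Itgax was higher by 1.30 ± 0.22 (adjusted p = 1.99e-04), while the median of all tested genes was 0.14 in this comparison. The other 2 add little, since Itgam is tied to the CD11b gate and the call of Itgal was lost on omission of single samples, as given below. Mature cDC2 were at least 4.66-fold higher than mature cDC1 in Itgam, where cDC1 were at 0. All 6 macrophage markers, genes of a cell type that expresses β2 integrins, were also called higher in mature cDC2, with a summed level of 1746 to 14521 against 79.7 to 475 in mature cDC1. Mature thymic cDC2 replicate 3 was the lowest of its group for Itgb2, Itgax, Itgal and Itgam. In that sample Itgb2, Itgax and Itgam were above all mature cDC1 samples and Itgal was not, and the part of the macrophage markers in these differences was not tested.

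Of the calls in mature cells, 3 were lost on omission of single samples and also under other alternatives. Itgal (1.51 ± 0.48, adjusted p = 0.0262) was not called without mature thymic cDC1 replicate 2 (log2 fold change 0.66, adjusted p = 0.179) or without mature thymic cDC2 replicate 2 (1.09, adjusted p = 0.162), and its groups overlapped. Itgb7 (1.02 ± 0.28, adjusted p = 0.0123) no longer passed 2-fold without replicate 1 or 2 of either mature group, with log2 fold changes of 0.812 to 0.997. Itgb8 (-1.36 ± 0.52, adjusted p = 0.0632) was not called without mature thymic cDC1 replicate 1 (adjusted p = 0.178) or without mature thymic cDC2 replicate 1, 2 or 3 (adjusted p = 0.159, 0.113 and 0.117). In the omission of mature thymic cDC2 replicate 2, 4 rather than 7 of the genes were called. In fits that kept both mature groups whole, Itgal was not called with only the compared groups fitted (limma adjusted p = 0.159). The log2 fold change of Itgb7 was 0.992 by edgeR, 0.961 by DESeq2 and 0.988 with a pseudocount of 8, below 2-fold. Itgb8 was not called with a pseudocount of 0.1 (limma adjusted p = 0.426) or with no filter (limma adjusted p = 0.127). For the maturation effects, the differences between the subsets were called for Itgal, Itgb2 and Itgb7, with smaller falls in cDC2 (3 of 10, against 8.34%), and for Itgb8, with a smaller rise in cDC2 (1 of 10, against 5.25%).

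**Figure D5:**
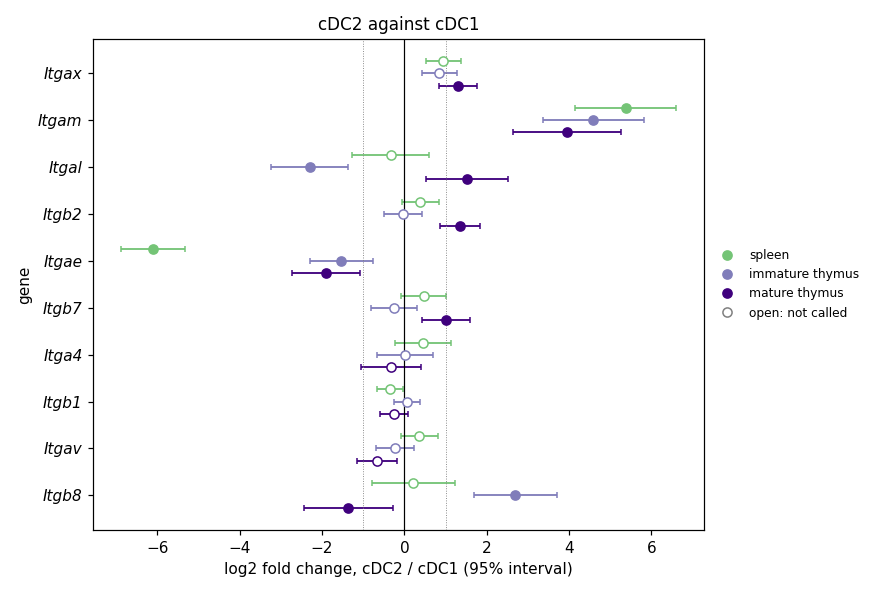
The plot gives the log2 fold change of cDC2 over cDC1 (horizontal axis) for each integrin gene (vertical axis) in the spleen, in immature and in mature thymic cells, with 95% intervals and filled symbols for called genes. Itgam lies right of 0 and Itgae left of 0 in all 3, and Itgal lies left of 0 in immature and right of 0 in mature thymic cells.

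The other genes of the pathway were taken from lists of 17 other integrin subunits, 14 integrin ligands, 19 genes of integrin activation, 23 of integrin signalling and 9 of TGF-β activation. Over all tested genes, 21.3% were higher and 24.5% lower at maturation in cDC1 and 18.6% were higher and 17.0% lower in cDC2, and a share of a list near these values is no result about that list. Of 15 other subunits tested, 4 (26.7%) were higher and 6 (40%) lower in mature than in immature thymic cDC1, and 7 (46.7%) were higher and 3 (20%) lower in cDC2. Itgb5, another partner of αv, was higher in mature cDC1 (2.30 ± 0.34, adjusted p = 8.38e-06), and Itga6, a laminin receptor chain, was higher in mature cDC2 (2.65 ± 0.20, adjusted p = 9.93e-10). Itga8 was lower in both subsets, with -7.16 ± 0.43 (adjusted p = 1.72e-11) in cDC1 and -3.46 ± 0.46 (adjusted p = 3.26e-06) in cDC2. Between tissues, 1 (6.67%) was higher and 2 (13.3%) lower in thymic cDC1, against 4.26% and 4.52% of all tested genes, and 4 (26.7%) were higher and 3 (20%) lower in thymic cDC2, against 8.30% and 5.87%, among them Itga5, the fibronectin receptor chain, with 1.56 ± 0.24 (adjusted p = 6.71e-05).

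Of 11 ligands tested, 6 (54.5%) were higher and 3 (27.3%) lower in mature cDC1, and 3 (27.3%) were higher and 2 (18.2%) lower in mature cDC2. Icam1, a ligand of LFA-1, was higher in both (2.07 ± 0.17, adjusted p = 1.21e-09 and 2.12 ± 0.18, adjusted p = 5.05e-09), as was Vcam1, a ligand of VLA-4 (3.27 ± 0.27, adjusted p = 1.78e-09 and 2.61 ± 0.29, adjusted p = 2.56e-07). Cdh1 (E-cadherin), the ligand of αEβ7, was at a mean of 10048 normalized read counts in immature thymic cDC2 and 39.7 in splenic cDC2 (7.99 ± 0.85, adjusted p = 8.05e-07). It was lower in mature thymic cells (-4.08 ± 0.79, adjusted p = 1.63e-04 in cDC1 and -5.75 ± 0.85, adjusted p = 1.11e-05 in cDC2). Thus Cdh1 and Itgae, a ligand and its receptor chain, were both higher in immature thymic cDC2 than in splenic or mature thymic cDC2. Among 4 markers of epithelium, a cell type that expresses E-cadherin, Epcam was at a mean of 3516 in immature thymic, 108 in splenic and 385 in mature thymic cDC2. The other 3 were low and did not follow Cdh1 at maturation, with Krt5 at 32.5 in immature and 175 in mature thymic cDC2, Psmb11 at 13.0 and 108 and Foxn1 at 5.35 and 14.2, of which Krt5 and Psmb11 were called higher. All 4 were called higher in immature thymic than in splenic cDC2, where Foxn1 and Psmb11 were at 0, and their part in the value of Cdh1 was not tested. Between tissues 4 (36.4%) ligands were higher and 1 (9.09%) lower in cDC1, against 4.26% and 4.52% of all tested genes, and 5 (45.5%) were higher and 2 (18.2%) lower in cDC2, against 8.30% and 5.87%, with F11r, a ligand of LFA-1, at 6.34 ± 0.18 (adjusted p = 5.80e-15) and 3.03 ± 0.21 (adjusted p = 2.72e-09).

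Of 18 genes of integrin activation tested, 4 (22.2%) were higher and 5 (27.8%) lower in mature cDC1, close to the shares of all tested genes, and 3 (16.7%) were higher and 5 (27.8%) lower in mature cDC2. Fermt3 (kindlin-3), which binds β tails in leukocytes, was lower in both (-2.50 ± 0.27, adjusted p = 8.67e-08 and -1.53 ± 0.29, adjusted p = 1.60e-04), and Tln1 (talin-1) was lower in cDC1 (-1.33 ± 0.23, adjusted p = 4.00e-05). Dok1, an adaptor that competes with talin for β tails, was higher in both (3.68 ± 0.21, adjusted p = 6.88e-12 and 3.01 ± 0.22, adjusted p = 1.03e-09). Of 21 signalling genes tested, 5 (23.8%) were higher and 10 (47.6%) lower in mature cDC1, and 3 (14.3%) were higher and 9 (42.9%) lower in mature cDC2. The actin crosslinker Actn1 (3.88 ± 0.14, adjusted p = 8.14e-15 and 2.80 ± 0.15, adjusted p = 9.47e-12) and the kinase Src (6.10 ± 0.37, adjusted p = 1.57e-11 and 3.85 ± 0.39, adjusted p = 8.53e-08) were higher, and Parvg, a parvin of leukocyte adhesions, was lower (-5.98 ± 0.31, adjusted p = 1.44e-12 and -4.14 ± 0.33, adjusted p = 2.35e-09). All 9 TGF-β activation genes were tested, with 3 (33.3%) higher and 4 (44.4%) lower in each subset at maturation. Tgfb1, whose latent product αvβ8 activates, was lower (-2.58 ± 0.26, adjusted p = 3.77e-08 and -2.19 ± 0.28, adjusted p = 1.75e-06), as was Tgfbr2, a receptor of TGF-β (-3.35 ± 0.37, adjusted p = 1.34e-07 and -1.81 ± 0.39, adjusted p = 7.41e-04), while Itgb8 was higher.

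For 9 of the genes, the 2 other genes with the most alike pattern were found by Pearson correlation of log2 values over the 20 samples, among 10214 genes with a mean of at least 100. These samples share 6 groups, so that the correlations describe group patterns. Itgax was most like Ctnnd2 (r = 0.993) and Nfam1 (0.986), Itgb2 like Pnpla7 (0.991) and Tle1 (0.991), Itgal like Tns3 (0.981) and Evl (0.977), and Itgam like Ptger3 (0.982) and Dgkd (0.962). Itgb7 was most like Mical1 (0.992) and Parp1 (0.989), and Itgae like Sept3 (0.966) and Manf (0.955). Itga4 was most like Pde7a (0.947) and Atp10d (0.942), and Itgb8 like Oprd1 (0.989) and Abcg1 (0.985). Itgav had the weakest likeness, with Tut7, listed as Zcchc6 (0.905) and Mapk8 (0.865).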

How the data were processed

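The libraries were made with a stranded mRNA kit. The authors used Cutadapt for trimming, STAR (2.6) for alignment to mm10, HTSeq-count for counts over Ensembl genes and DESeq2 (1.24.0) for normalization. The Ensembl release and the strand setting of the counting are not given in the sources used here. The deposited values, a normalized signal, are gene counts over the size factor of the library, and whole reads were recovered for 100% of the values within 0.01 of a whole number. They set the precision, and a floor of 3 reads covers counting error only. The integrin genes and all lists were chosen with earlier results of these data known.

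Tests with limma (3.58.1, R 4.3.3) covered the 14970 genes that reached a value of 10 in 3 or more samples, on log2(value + 1), with 1 mean for each of the 6 groups and an intensity trend in eBayes. Calls required a change above 2-fold and an adjusted p (Benjamini-Hochberg) under 0.1. There were 7 comparisons of 2 groups and 2 differences between effects, which share samples. Named were all 10 integrin genes, the 2 genes most like each (for Itgb1 these are not reported here), and from each pathway list up to 3 called genes with the largest rise or fall and a mean of at least 100, or any subunit or ligand. Tln1 was outside that rule and was named after its values were seen. Alternatives were edgeR (4.0.16) and DESeq2 (1.42.0) on the recovered reads, other scalings, pseudocounts of 0.1 and 8, other filters, other groups in the fit, sequencing lane, 1 sample per pool, a block by pool number and the omission of each sample. Gene positions and exon lengths came from GENCODE M21, in which 37607 of the 37734 genes were found. The methods were tested on simulated data.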

Additional observations from a re-analysis of the deposited data

Results flagged for a closer look

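Each gene was examined in each group of 4 samples, which gave 20 sets of values. A single sample far from the others was found in 2 of the 20 sets, and chance gives about 1 in 20. Itgb8 was at 0.318 normalized read counts in 1 splenic cDC1 sample and at 0 in the other 3, which is 1 read in 1 of 2 averaged libraries. With the other 3 at 0 any read there would be flagged, so that the chance rate does not apply to it. Itgb2 was at 7899 in immature thymic cDC1 replicate 4, below the other 3 samples.

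The maturation effect differed between cDC2 and cDC1, by limma's test of the difference (cDC2 minus cDC1, log2), for Itgal by 3.81, for Itgb2 by 1.39, for Itgb7 by 1.27 and for Itgb8 by -4.06. The tissue effect differed for Itgae by 4.58, for Itgal by -1.97 and for Itgb8 by 2.48.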

How the results depend on the processing

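Of the 45 calls of integrin genes, 39 were kept under all alternatives, among them all 18 at maturation. The other 6 were Itgam between tissues in cDC2, Itgal, Itgb7 and Itgb8 between mature subsets, and the tissue differences of Itgal and Itgb8. The size of fold changes of Itgam and Itgb8 rests on the pseudocount, since counts near 0 set them. Itgam in the maturation difference, -0.64 and not called, was 3.09 by edgeR, 1.85 by DESeq2 and 2.45 with a pseudocount of 0.1, none of them called, and was called at -2.44 with a pseudocount of 8 (limma adjusted p = 0.00673). Itga4 between immature thymic subsets, 0.02 and not called, was -0.0388 by edgeR, -0.0245 by DESeq2, -0.132 with 1 sample per pool, -0.0173 with lane as a covariate and -0.0315 without the 3 libraries lowest in long genes. That omission also turned Itgb2 between immature thymic subsets to 0.0109 and left 1 of 3 integrin calls in the tissue difference. None of the other reversed values was called. Itgav between tissues in cDC1 was 0.00949 with 1 sample per pool and 0.0741 in lane 8 alone, where Itgb1 was 0.0591 and Itgb8 between splenic subsets was -0.199. Itgav at maturation in cDC2 was 0.00621 with lane as a covariate. On omission of single samples the values ranged from -0.311 to 0.302 (Itga4) and -0.133 to 0.00486 (Itgb2) between immature thymic subsets, from -0.238 to 0.0139 for Itgav at maturation in cDC2, from -0.294 to 0.0933 for Itgav between tissues in cDC1, from -0.463 to 0.0579 for Itgb7 between tissues in cDC2, from -0.0997 to 0.369 for Itgb8 between splenic subsets, from -0.147 to 0.00986 for Itgax in the tissue difference, and from -0.852 to 0.0537 (Itgae) and -1.20 to 0.31 (Itgam) in the maturation difference. The integrin calls ranged from 4 to 7 between mature subsets and from 1 to 3 in the tissue difference.

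With a value of at least 10 required in every sample, which tests fewer genes and drops Itgam and Itgb8, the calls over all genes were 4095 and 3123 at maturation in cDC1 and cDC2, 580 and 1083 between tissues, 1308, 1086 and 1128 between subsets (spleen, immature and mature thymus), and 1183 and 436 for the maturation and tissue differences. The integrin calls were then 3 between tissues in cDC2, 1 between splenic subsets and 2 between immature thymic subsets. With only the compared groups fitted, 1767 genes were called between mature subsets. In lane 8 alone, with fewer samples, 817 genes were called between tissues in cDC1, 1631 between splenic subsets, 1199 in the maturation difference and 208 in the tissue difference. The integrin calls of the tissue difference fell from 3 to 1 with a pseudocount of 0.1, with no filter and in lane 8 alone. All mature libraries were in lane 8.

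Same-numbered pools of cDC1 and cDC2 correlated at -0.04, 0.33 and 0.46 in the spleen and at -0.11, 0.21 and 0.15 in immature thymic cells. Pools of unlike number correlated at -0.49 to 0.34 in the spleen and -0.38 to 0.27 in immature thymic cells. Since these ranges overlap, the pool numbers were not taken to pair the samples, but a pairing was not excluded. Pool numbers of mature samples were not compared in this way. With the pool number as a random replicate block, 2605 genes were called between splenic and 2566 between immature thymic subsets, and Itga4 in the latter was -0.011. With a fixed block these were 2512 and 2346, and Itga4 was -0.13, as it was in the same 6 samples without the block. The random block ended the call of Itgb7 between mature subsets (0.98).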
